A study of Mus musculus with 11 samples.

Results

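The 10 genes described here are expressed by the endothelial cells of the blood-brain barrier: Slco1c1, Slco1a4, Kdr, Flt1, Cldn5, Slc2a1, Abcb1a, Pecam1, Tek and Mfsd2a. They were taken by gene name from 54532 genes in the table, and all 10 were among the 19619 genes with enough counts to be tested. The set was drawn up with the differences between arthritic and control tissue already known, so those differences are given as a description, without a test of their own. The question put to them was whether Slco1c1 and Kdr stood apart from the general markers of endothelium.

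The tissue was the lateral habenula, a nucleus of the epithalamus active in aversion, dissected from BALB/c mice of 3 months. In collagen antibody-induced arthritis (CAIA), mice were injected intraperitoneally with a cocktail of 5 monoclonal antibody clones against type II collagen at 50 mg/kg, and 3 days later with lipopolysaccharide (LPS) at 1 mg/kg. Controls received vehicle, so arthritis and LPS cannot be told apart. Total RNA was sequenced in 3 female CAIA, 3 male CAIA, 3 female control and 2 male control libraries, the last numbered replicates 1 and 3. The labels do not say that each library is a separate animal, and the spread that enters the p-values may then be technical.

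Totals were 25317306 to 29565006 counts per library, and each member had between 276 and 5369 counts in each library. Levels are in CPM, the count of a gene scaled to the library's total with edgeR's TMM factor. All 8 markers fixed for the habenula were detected, with summed levels of 1278 to 1640 CPM in CAIA and 1165 to 1635 CPM in control libraries. All 20 genes of a list of general endothelial markers (Cdh5, Emcn, Tie1, Eng and others) were also detected, at summed levels of 256 to 293 CPM in CAIA and 261 to 330 CPM in controls. The dissected tissue mixes many cell types, and fewer endothelial cells and less RNA per cell cannot be told apart. The choroid plexus markers separated the treatments, and their values are given below beside Slco1c1 and Kdr.

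Brain endothelial cells are joined by tight junctions, have few transport vesicles, and carry dense sets of transporters that decide which solutes enter the brain. Vascular endothelial growth factor (VEGF) and the angiopoietins act on receptors of these cells to control growth and permeability, and Wnt ligands from neural cells keep the barrier program on. Slco1c1 and Slco1a4 encode organic anion transporters. The protein of Slco1c1 carries thyroxine, and in rodents it is known in barrier endothelium and in choroid plexus epithelium.

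The promoter windows of Slco1c1 and Kdr, the members with the lowest CAIA levels relative to controls, are shown with that of Slco1a4, the close relative of Slco1c1 that lies near it on the same chromosome. Each runs from 250 bases before to 50 bases after the RefSeq start in GRCm38.p6, and is written 5′ to 3′ on the gene's strand. Capitals mark matches on either strand to the box of SP and KLF factors (letters GGGCGG), the core of ETS factors (letters CCGGAA), the core of TCF and LEF factors (letters TCAAAG) or the TATA box (letters TATAAA).
Slco1c1 at chr6:141524104-141524403, plus strand: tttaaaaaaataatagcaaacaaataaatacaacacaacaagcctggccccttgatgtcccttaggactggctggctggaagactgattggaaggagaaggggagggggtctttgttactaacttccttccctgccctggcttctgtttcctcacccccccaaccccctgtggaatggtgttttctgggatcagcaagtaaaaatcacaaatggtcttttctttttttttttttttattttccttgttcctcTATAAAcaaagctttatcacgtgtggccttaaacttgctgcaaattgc
Kdr at chr5:75978406-75978705, minus strand: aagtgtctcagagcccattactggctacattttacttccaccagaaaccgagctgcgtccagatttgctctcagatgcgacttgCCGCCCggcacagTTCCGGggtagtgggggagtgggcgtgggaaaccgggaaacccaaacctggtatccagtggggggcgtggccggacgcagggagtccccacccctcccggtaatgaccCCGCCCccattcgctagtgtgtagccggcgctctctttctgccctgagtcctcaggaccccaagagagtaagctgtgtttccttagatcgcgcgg
Slco1a4 at chr6:141856171-141856470, minus strand: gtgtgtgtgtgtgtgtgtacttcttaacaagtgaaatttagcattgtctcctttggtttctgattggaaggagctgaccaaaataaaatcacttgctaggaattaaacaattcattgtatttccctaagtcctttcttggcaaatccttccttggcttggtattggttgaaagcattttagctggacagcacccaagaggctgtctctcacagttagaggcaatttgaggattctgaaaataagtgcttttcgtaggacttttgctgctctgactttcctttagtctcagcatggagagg

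The Kdr window held 2 SP/KLF boxes and 1 ETS core, and 60.7% of its bases were G or C, against a median of 52.7% over all windows. The Slco1c1 window was at 42.0% and held none of these motifs except a TATAAA that begins 2 bases after the annotated start. The Slco1a4 window was at 40.7% and held no match. Of 32851 promoter windows, 35.7% held the SP/KLF box, 14.9% the ETS core, 16.0% the TCF/LEF core and 13.6% TATAAA. Windows were found for 9 of the 10 members, and among these 4 held the SP/KLF box, 1 the ETS core, 2 the TCF/LEF core and 3 TATAAA. Slco1c1 and Kdr shared no run longer than 8 bases. Slco1c1 and Slco1a4 shared a run of 14 bases, ctgattggaaggag, starting at -167 in Slco1c1 and -191 in Slco1a4, and 2 of the 32851 windows held it. These matches describe the letters of the windows and identify no bound site.

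The organic anion transporters gave the clearest contrast between relatives. Slco1c1 (chr6:141524368-141570177, plus strand) was at 44.1, 36.9 and 42.4 CPM in female CAIA and 39.7, 44.0 and 40.8 CPM in male CAIA libraries. It was at 62.5, 56.2 and 65.3 CPM in female control and 54.1 and 57.6 CPM in male control libraries. Every CAIA library lay below every control library, in both sexes. The means were 41.3 ± 2.77 CPM in CAIA (SD, n = 6) and 59.2 ± 4.62 CPM in controls (SD, n = 5), a log2 fold change of -0.50 ± 0.07 (SE) or -29.4%.

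Slco1a4 (chr6:141805440-141856199, minus strand), whose protein carries bile salts and other organic anions across the same cells, showed no such separation. It was at 48.1 to 55.1 CPM in CAIA and 48.6 to 57.2 CPM in control libraries, with means of 52.1 ± 3.20 CPM in CAIA and 53.1 ± 3.44 CPM in controls. The log2 fold change was -0.03 ± 0.06. The ratio of Slco1c1 to Slco1a4 within a library was 0.728 to 0.919 in CAIA and 1.01 to 1.29 in controls, so the order of these genes by CPM was reversed between the treatments in all 11 libraries. Of the other Slco genes near this locus, Slco1a5 was at 0.694 ± 0.252 CPM in CAIA and 1.22 ± 0.463 CPM in controls, Slco1b2 and Slco1a6 had 43 and 21 counts over all libraries, and Slco1a1 had 0. How reads that could belong to several of these relatives were counted is not given in the sources used here.

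Among the growth factor receptors, Kdr was lower in CAIA. On the log2 scale Flt1 differed by -0.03 and Tek by -0.13, against pooled SDs within groups of 0.17 for Flt1 and 0.13 for Tek. Kdr (chr5:75932827-75978458, minus strand) encodes VEGF receptor 2, the main signalling receptor for VEGF in endothelium. It was at 15.7, 13.4 and 15.0 CPM in female CAIA and 17.3, 11.2 and 14.1 CPM in male CAIA libraries. It was at 21.3, 22.2 and 23.5 CPM in female control and 19.4 and 17.2 CPM in male control libraries. The female groups did not overlap, whereas male CAIA replicate 1 lay just above male control replicate 3. The means were 14.4 ± 2.09 CPM in CAIA (SD, n = 6) and 20.7 ± 2.46 CPM in controls (SD, n = 5), a log2 fold change of -0.49 ± 0.10 or -28.6%.

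Flt1 (chr5:147561604-147726011, minus strand) encodes VEGF receptor 1, which binds VEGF tightly and signals weakly, and also gives a soluble form that traps it. It was at 61.6 to 86.6 CPM in CAIA and 63.2 to 88.8 CPM in control libraries, with a log2 fold change of -0.03 ± 0.09. Tek (chr4:94739289-94874976, plus strand) encodes TIE2, the receptor of the angiopoietins. It was at 10.8 to 14.3 CPM in CAIA and 10.99 to 16.5 CPM in control libraries, with a log2 fold change of -0.13 ± 0.09. The groups overlapped for both genes.

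**Figure D1:**
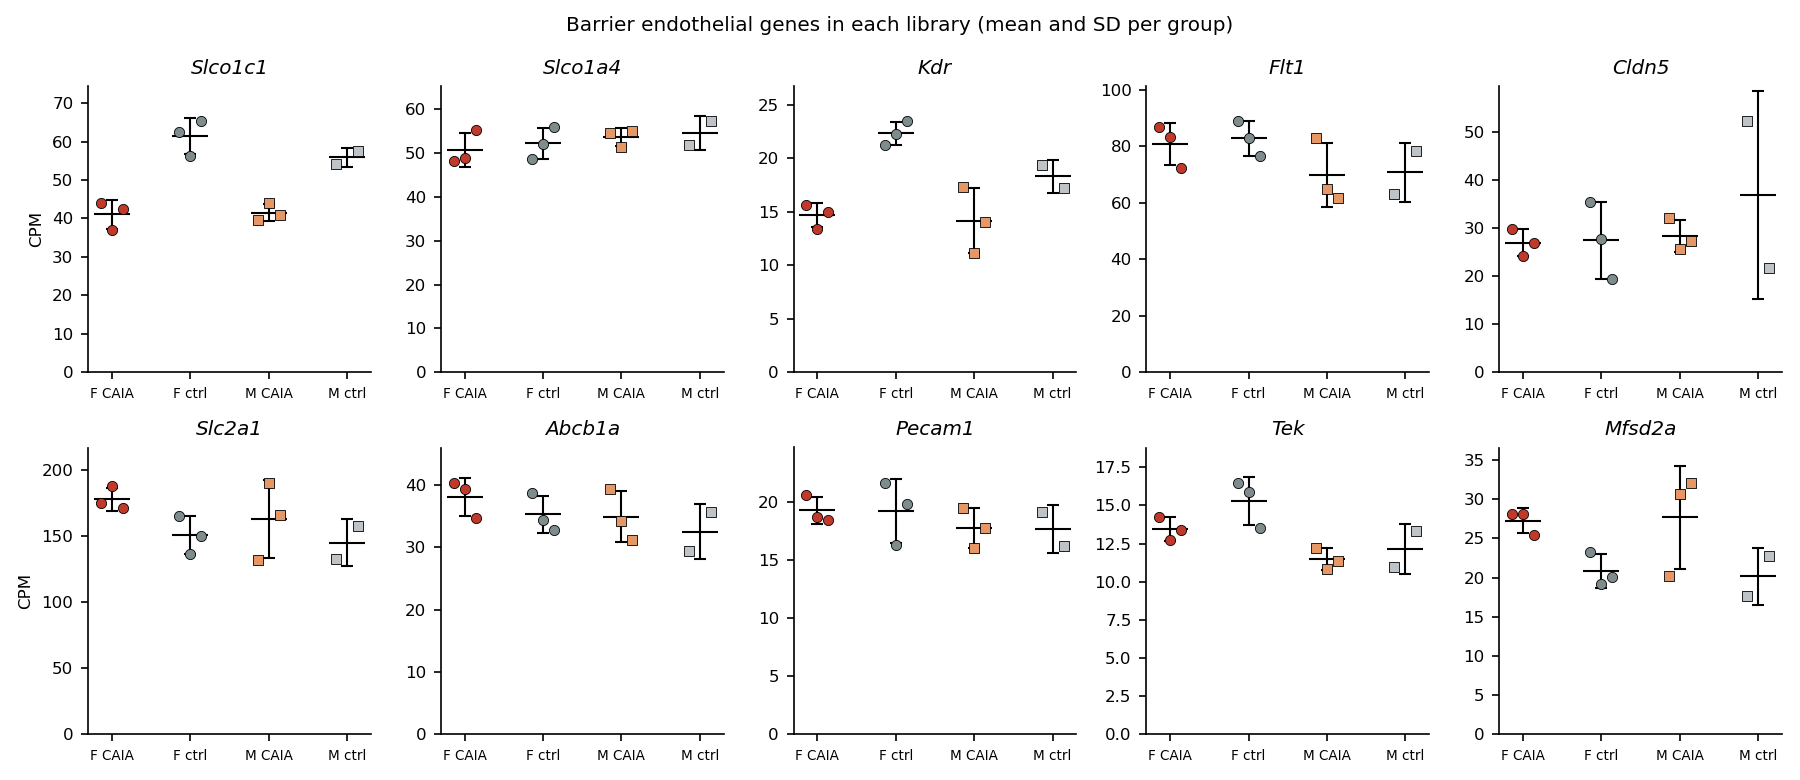
CPM of each of the 10 genes in each library (points), with the mean and SD of each group (lines), for CAIA and control libraries of each sex. Slco1c1 lies at 36.9 to 44.1 CPM in CAIA and 54.1 to 65.3 CPM in control libraries, and the CAIA and control points of Slco1a4, Flt1, Cldn5, Abcb1a, Pecam1 and Tek are mixed.

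The junction and adhesion genes overlapped between treatments. Cldn5 (chr16:18776847-18778262, plus strand) encodes claudin-5, the main tight junction protein of brain endothelium, and was the most variable member. It was at 24.3 to 32.2 CPM in CAIA libraries, and at 19.4 to 52.3 CPM in controls, where male control replicate 1 was the highest. The log2 fold change was -0.20 ± 0.23, and 0.18 ± 0.17 without that library, so its sign rested on 1 library. Pecam1 (chr11:106654217-106750628, minus strand), the adhesion molecule CD31 of all endothelium, was at 16.1 to 20.6 CPM in CAIA and 16.2 to 21.7 CPM in controls, with a log2 fold change of 0.01 ± 0.09.

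The other transporters were at similar or higher levels in CAIA. Mfsd2a (chr4:122946850-122961188, minus strand) encodes the carrier of lysophosphatidylcholine that brings docosahexaenoic acid into the brain and restrains vesicle transport. It was at 28.2, 28.2 and 25.4 CPM in female CAIA and 20.2, 30.7 and 32.1 CPM in male CAIA libraries. It was at 23.2, 19.1 and 20.1 CPM in female control and 17.6 and 22.8 CPM in male control libraries. All CAIA libraries but male replicate 1 were above all controls, and the log2 fold change was 0.42 ± 0.12. Mfsd2a did not pass the test described below. Without male CAIA replicate 1 it did, at 0.51 ± 0.09, and over all fits that left out 1 library the value was 0.33 (without male control replicate 1) to 0.53 (without male control replicate 3).

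Slc2a1 (chr4:119108711-119137983, plus strand) encodes GLUT1, which carries glucose across the barrier and is also made by astrocytes. It was at 175, 187 and 171 CPM in female CAIA and at 165, 136 and 150 CPM in female control libraries, without overlap. In males it was at 131, 190 and 166 CPM in CAIA and 132 and 157 CPM in control libraries, and the groups overlapped. The log2 fold change over both sexes was 0.20 ± 0.09, and 0.13 without male CAIA replicate 2. Abcb1a (chr5:8660077-8748575, plus strand) encodes P-glycoprotein, the drug efflux pump, and was at 31.2 to 40.4 CPM in CAIA and 29.4 to 38.7 CPM in controls, with a log2 fold change of 0.11 ± 0.08. Without male control replicate 1 it was 0.03, and without male control replicate 3 it was 0.19. Its paralog Abcb1b was at 2.05 ± 0.359 CPM in CAIA and 1.94 ± 0.230 CPM in controls. On the opposite strand, the genes that share exon bases with Slc2a1 and Abcb1a had 87 and 34 counts over all libraries, against 47993 and 10617 counts for the members, and an antisense gene over Slc2a1 that shares no exon bases with it had 148.

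In the quasi-likelihood test of edgeR with Benjamini-Hochberg adjustment over the 19619 genes, 2 of the 10 members passed the threshold of 0.05. Both, Slco1c1 and Kdr, were lower in CAIA. Over all genes tested, 0.596% passed in either direction (117 genes, and 43 to 180 when 1 library was left out), 0.576% as lower in CAIA and 0.0204% as higher. Since the members were chosen on this contrast, nothing is read from their count. The median log2 fold change was -0.03 over the members and 0.00017 over all genes tested. Every CAIA library lay below every control library for 1 member, Slco1c1, and for 1.01% of all genes tested, and above for no member and 0.168% of all genes. Among females 2 members lay wholly below (Slco1c1 and Kdr) and 2 wholly above (Slc2a1 and Mfsd2a), against 6.39% and 5.08% of all genes. Among males 1 member lay wholly below (Slco1c1) and none above, against 8.51% and 9.18% of all genes, and the sizes of the groups set these shares. Slco1c1 passed in each of the 11 fits that left out 1 library, with log2 fold changes of -0.53 to -0.47. Kdr passed only in the 3 fits without male control replicate 3, male CAIA replicate 1 or male CAIA replicate 2. Without any of the other 8 libraries its log2 fold change was -0.51 to -0.45 and it did not pass. Neither passed with the level of choroid plexus markers as a covariate, whose values are given below. All these fits reuse the values known when the members were chosen. They describe dependence on single libraries and settings, and lend the members no further support.

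**Figure D2:**
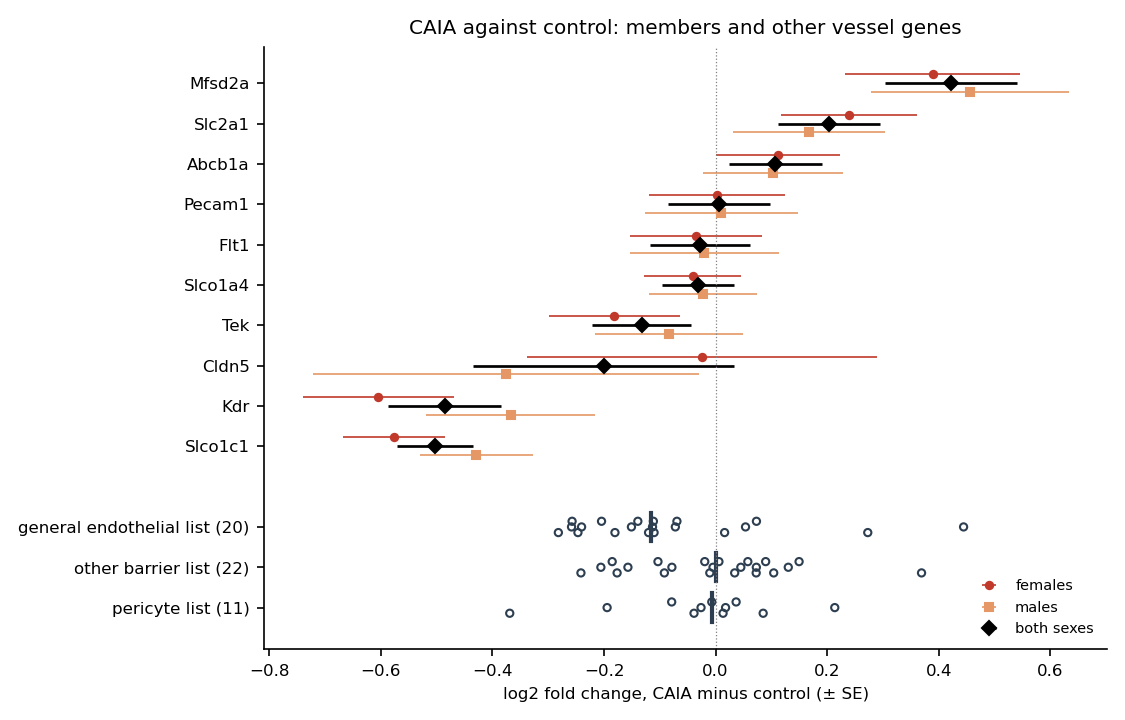
Log2 fold change of CAIA over control with its SE for the 10 members, over both sexes and within each sex, with the genes of 3 other vessel lists as points, with their medians as bars, in the lower rows. Slco1c1 at -0.50 and Kdr at -0.49 are the lowest of the 10 members over both sexes and Mfsd2a at 0.42 the highest, with Vwf of the general endothelial list at 0.44.

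Per kilobase of exon, the members' levels spanned from Slc2a1, at 45.6 ± 5.92 CPM per kb over the 11 libraries (SD), to Kdr, at 1.91 ± 0.434. Cldn5 followed Slc2a1 at 20.7 ± 6.24 CPM per kb, and then came Mfsd2a at 10.8 ± 2.19, Slco1c1 at 9.53 ± 1.92 and Slco1a4 at 8.19 ± 0.495. Abcb1a at 6.48 ± 0.657, Flt1 at 5.66 ± 0.715, Pecam1 at 2.98 ± 0.298 and Tek at 2.80 ± 0.393 CPM per kb came next. Within libraries, 3 of the neighbouring pairs did not keep this order. Mfsd2a was above Slco1c1 in 6 of 11 libraries, Slco1c1 above Slco1a4 in 7 of 11, and Pecam1 above Tek in 8 of 11. The first of these crossings followed treatment: Mfsd2a averaged 12.2 ± 1.90 CPM per kb in CAIA (n = 6) and 9.14 ± 1.06 in controls (n = 5), whereas Slco1c1 averaged 7.97 ± 0.535 in CAIA and 11.4 ± 0.892 in controls. In the second, Slco1c1 lay below Slco1a4 only in CAIA libraries, though not in all of them.

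Set against the endothelium of the same library, and without regard to choroid plexus level, Slco1c1 and Kdr remained lower in CAIA. The reference was the mean log2 CPM of the 20 general endothelial markers, which holds none of the members. That mean was 3.16 ± 0.07 in CAIA (SD, n = 6) and 3.25 ± 0.10 in controls (SD, n = 5), a difference of -0.08 ± 0.06 (SE). Slco1c1 lay 2.08 to 2.39 log2 units above it in CAIA and 2.49 to 2.85 in control libraries, without overlap, and the difference between treatments was -0.42 ± 0.08. Kdr lay 0.42 to 0.89 above it in CAIA and 0.91 to 1.38 in control libraries, also without overlap, with a difference of -0.41 ± 0.10. These differences were -0.50 for Slco1c1 and -0.53 for Kdr in females, and -0.34 for Slco1c1 and -0.29 for Kdr in males. Over the fits that left out 1 library they were -0.47 to -0.37 for Slco1c1 and -0.46 to -0.34 for Kdr. With the list mean as a covariate in the edgeR fit, the log2 fold change was -0.49 ± 0.08 for Slco1c1, which passed. For Kdr it was -0.42 ± 0.11, which did not pass. Relative to the list, but with the choroid plexus level as a covariate, Kdr stayed lower in CAIA and Slco1c1 did not, as given below. Slco1c1 and Kdr were named in the question with this contrast known, so these values are a description. The share of all genes tested without overlap was not computed on this relative scale or for ratios between genes.

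On the same relative scale, Mfsd2a differed by 0.50 ± 0.17, Slc2a1 by 0.28 ± 0.14 and Abcb1a by 0.19 ± 0.08, each with CAIA and control libraries that overlapped. The other 5 members lay between -0.04 and 0.09. Ratios between members reuse the same values of Slco1c1 and Kdr, and are likewise a description. Kdr to Pecam1 was 0.777 ± 0.069 in CAIA and 1.12 ± 0.157 in controls, without overlap. Slco1c1 to Pecam1 was 2.25 ± 0.276 in CAIA and 3.20 ± 0.331 in controls, also without overlap. Kdr to Flt1 was 0.193 ± 0.026 in CAIA and 0.268 ± 0.039 in controls, with overlap. The ratio of Slco1c1 to Kdr averaged 2.92 ± 0.543 in CAIA and 2.88 ± 0.300 in controls.

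**Figure D3:**
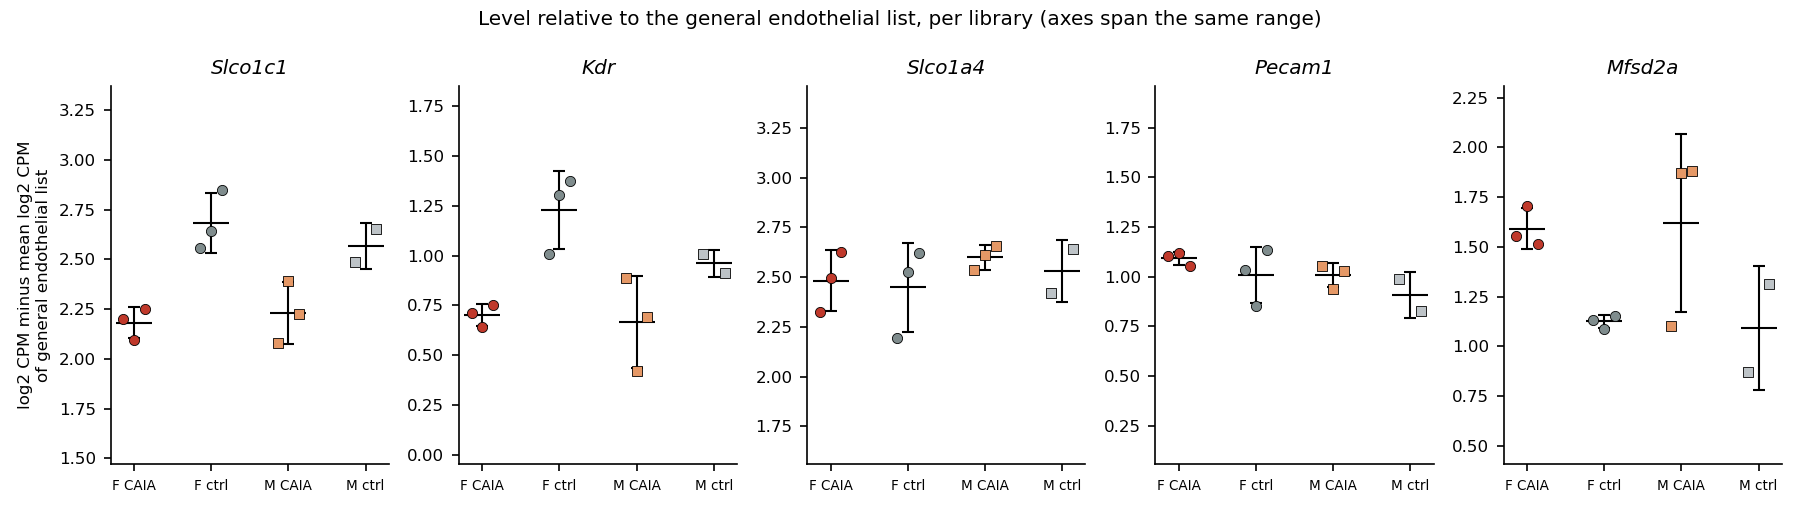
Log2 CPM of Slco1c1, Kdr, Slco1a4, Pecam1 and Mfsd2a minus the mean log2 CPM of 20 general endothelial markers in the same library, with the mean and SD of each group (lines). Slco1c1 lies at 2.08 to 2.39 in CAIA and 2.49 to 2.85 in control libraries, and Kdr at 0.42 to 0.89 in CAIA and 0.91 to 1.38 in controls.

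No gene of the general endothelial list passed the test with edgeR, DESeq2 or limma-voom. An unadjusted p under 0.05 was given by edgeR for 3 of 20. It was given for 1248 of all 19619 genes tested, against which the counts of the lists below are also to be read. Of the 20, 15 had a negative and 5 a positive log2 fold change, with a median of -0.12, against 0.00017 over all genes tested. The lowest was Mmrn2, an endothelial matrix protein, at -0.28. None lay as low as Kdr or Slco1c1, but these were named in the question with this contrast known, so this is a description. The highest was Vwf, the clotting factor stored in endothelium, at 23.9 ± 3.10 CPM in CAIA and 17.9 ± 3.22 CPM in controls. Its log2 fold change was 0.44 ± 0.12, with an edgeR adjusted p of 0.180, and it passed when male control replicate 3 was left out. The nitric oxide synthase Nos3 was at -0.26 ± 0.11 and the TGF-beta co-receptor Eng at -0.18 ± 0.07.

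The list of 22 other barrier genes was split evenly, with 11 negative and 11 positive log2 fold changes and a median of 0.00. None passed with any of the 3 tools, and 3 had an unadjusted p under 0.05 with edgeR. These were Nostrin, a regulator of Nos3 trafficking, at 0.37 ± 0.15, Bsg, the chaperone of lactate carriers, at -0.19 ± 0.08, and Foxf2, a transcription factor of brain vessels, at -0.24. The lactate carrier Slc16a1 and the amino acid carrier Slc7a5 were at 0.03 and 0.05. Over these lists together, none of 42 genes had a log2 fold change below that of Kdr, and 1 was above that of Mfsd2a. Since the members were chosen with this contrast known, this is a description. None of the 42 had CAIA and control libraries without overlap, against 1.01% of all genes tested wholly lower and 0.168% wholly higher in CAIA.

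Genes that act with the members were described from fixed lists. Among 16 genes of the VEGF and angiopoietin pathway, none passed with edgeR, DESeq2 or limma-voom, 12 were negative and 4 positive, and the median log2 fold change was -0.04. Vegfa, the ligand of Kdr and Flt1, was at -0.07 ± 0.06, and the co-receptor Nrp1 at 0.04 ± 0.14. Plxnd1, a receptor for semaphorins in endothelium, was the only one with an unadjusted p under 0.05 with edgeR. It was at -0.34 ± 0.11 with an edgeR adjusted p of 0.487. Its CAIA libraries all lay below the controls, as for 1.01% of all genes tested.

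Among 14 genes of the Wnt signal that maintains the barrier, none passed with edgeR, 10 were negative and 4 positive, and the median was -0.06. The 3 with an unadjusted p under 0.05 were Fzd6, a Frizzled receptor, at -0.31 ± 0.08, Lrp5, a Wnt co-receptor, at -0.25 ± 0.07, and Reck, a co-receptor for Wnt7, at -0.22 ± 0.10. Their edgeR adjusted p-values were 0.119, 0.225 and 0.746, and Fzd6 passed with DESeq2. Fzd6 was at 12.7 to 14.9 CPM in CAIA and 16.4 to 19.3 CPM in control libraries. Lrp5 was at 16.1 to 18.1 CPM in CAIA and 18.9 to 22.4 CPM in control libraries. For both, every CAIA library lay below every control library, as for Slco1c1 and for 1.01% of all genes tested.

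Among vessel cells other than capillary endothelium, no tested gene of 8 arterial, 5 venous or activated, 2 fenestrated, 3 lymphatic, 11 pericyte and 4 smooth muscle genes passed with edgeR, DESeq2 or limma-voom. Unadjusted p-values under 0.05 were given by edgeR for 1 venous or activated, 1 fenestrated, 2 lymphatic and 2 pericyte genes, and 1 fenestrated and 1 lymphatic gene passed without male control replicate 3. Over the pericyte genes the median log2 fold change was -0.01, with summed levels of 270 to 300 CPM in CAIA and 279 to 318 CPM in controls, and Pdgfrb, the receptor that keeps pericytes on capillaries, was at -0.19 ± 0.07. Anpep, a peptidase of pericytes, was at -0.37 ± 0.13, with every CAIA library below every control library, as for 1.01% of all genes tested. Plvap, the diaphragm protein of leaky fenestrated vessels, was at 17.2 ± 1.75 CPM in CAIA and 21.5 ± 3.99 CPM in controls, a log2 fold change of -0.35 ± 0.10 with an edgeR adjusted p of 0.302. Male control replicate 1 was its highest library at 28.6 CPM, and without it the value was -0.19 ± 0.09, against -0.47 ± 0.09 without male control replicate 3. Lrg1, a glycoprotein of activated venules, was at 1.20 ± 0.42 with an edgeR adjusted p of 0.540. Selp and Sele, selectins of activated endothelium, had too few counts to be tested.

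Among markers of the epithelium and membranes that border the habenula, those of choroid plexus differed most with treatment. Of 13 choroid plexus genes 6 passed as lower in CAIA with edgeR and 12 with DESeq2, and 0 to 12 passed when 1 library was left out. In the fit over all libraries all 13 were negative, and the median log2 fold change was -3.07. Their summed levels were 245 to 2116 CPM in CAIA and 2706 to 5625 CPM in control libraries. Of 10 meningeal fibroblast genes 2 passed as lower, Igf2 at -1.35 and Col1a1 at -0.37 (0 to 3 passed when 1 library was left out). Their summed levels were 68.1 to 105 CPM in CAIA and 82.5 to 129 CPM in controls. The median log2 fold change of these meningeal genes was -0.52 in females, with 10 negative. It was -0.15 in males, with 6 negative and 4 positive. No gene passed with edgeR in the lists for astrocytes, microglia, perivascular macrophages, oligodendrocytes, neurons, red blood cells, pineal, habenula or thalamus, nor with DESeq2 or limma-voom. Unadjusted p-values under 0.05 were given by edgeR for 2 of 7 astrocyte, 1 of 6 microglial, 2 of 5 perivascular macrophage and 1 of 4 pineal genes. All 5 perivascular macrophage genes and all 6 microglial genes had positive log2 fold changes, with medians of 0.42 and 0.07. The 4 pineal genes had a median of 1.33 and summed levels of 0.987 to 25.8 CPM in CAIA and 0.973 to 6.89 CPM in control libraries, and their part in the members' values was not tested.

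The levels of Slco1c1 and Kdr were therefore set beside those of Ttr, the most abundant choroid plexus marker, which encodes the thyroxine carrier transthyretin. Ttr was at 29.2, 27.0 and 29.9 CPM in female CAIA and 65.5, 1188 and 305 CPM in male CAIA libraries. It was at 1469, 1996 and 3289 CPM in female control and 2704 and 2577 CPM in male control libraries. Male CAIA replicate 2 had the highest Ttr of the CAIA libraries, still below every control. This 1 library had Slco1c1 at 44.0 CPM and Kdr at 11.2 CPM, both below every control library. The female CAIA libraries, where Ttr was lowest, had Slco1c1 at 36.9 to 44.1 CPM and Kdr at 13.4 to 15.7 CPM. The mean log2 CPM of the choroid plexus list was 1.83 to 4.93 in CAIA and 5.40 to 6.32 in control libraries, so it does not overlap between treatments. Within groups that mean varied most in male CAIA libraries, with an SD of 1.41 (n = 3) against 0.08 to 0.46 in the other groups. With that mean as a covariate, its slope therefore rests largely on the male CAIA libraries. The log2 fold change in this fit was -0.34 ± 0.18 for Slco1c1 and -1.10 ± 0.23 for Kdr, and neither passed. In the same fit Slco1c1 relative to the general endothelial list differed by 0.017, and Kdr by -0.75, both given without an SE. Slco1c1 alone was at -0.34 there, so the list mean was itself lower in CAIA in this fit. Without the covariate the list mean differed by -0.08 ± 0.06. The part of choroid plexus RNA in these results was not tested beyond these values.

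**Figure D4:**
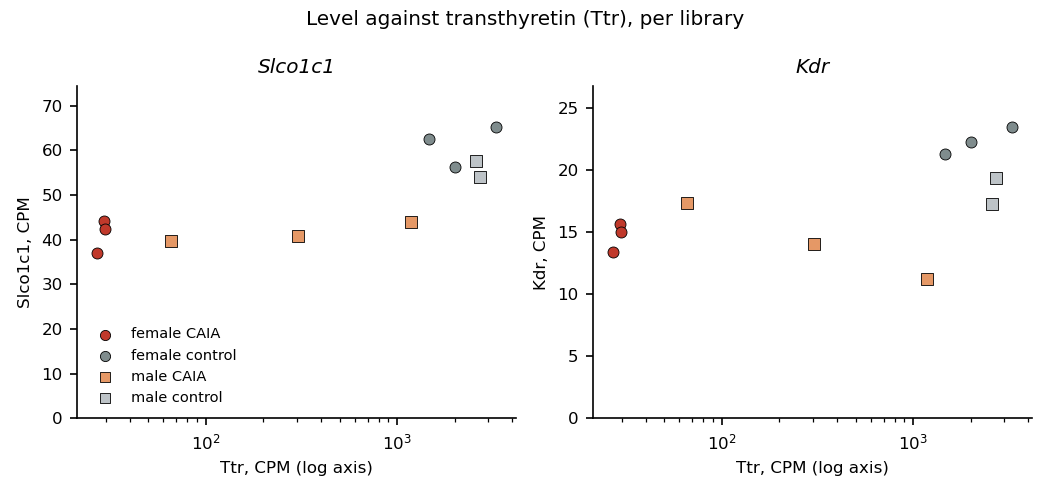
CPM of Slco1c1 and Kdr against CPM of Ttr (log axis), 1 point for each library. Male CAIA replicate 2, at 1188 CPM of Ttr, has 44.0 CPM of Slco1c1 and 11.2 CPM of Kdr. All 3 values are below the control range, which for Ttr is 1469 to 3289 CPM.

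Sex was not used to choose the members. In female against male libraries 0 of 10 members passed with edgeR, with 0.0459% of all genes tested passing. An unadjusted p under 0.05 was given by edgeR for 2 of 10 members and for 1326 of all 19619 genes tested. Tek was higher in females by 0.28 ± 0.09 and Flt1 by 0.22 ± 0.09 on the log2 scale, with edgeR adjusted p-values of 0.725 and 0.731. The female minus male CAIA effect is built from the same CAIA and control values that chose the members, so it is given for them as a description. For it 0 of 10 members passed, as did 0 of all genes tested (0.0%), of which 807 had an unadjusted p under 0.05 with edgeR and 2 passed with DESeq2. The log2 fold changes in females and males were -0.58 ± 0.09 and -0.43 ± 0.10 for Slco1c1, a difference of -0.15 ± 0.14. They were -0.60 ± 0.14 and -0.37 ± 0.15 for Kdr, a difference of -0.24 ± 0.20. For Cldn5 the difference was 0.35 ± 0.47, the least precise of the members.

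Within groups, where treatment and sex are held fixed, each member's log2 CPM was taken as a deviation from its group mean, and all 45 pairs of members were compared over the 11 libraries. With 432 arrangements within groups, the smallest p that exact permutation can give is 0.00231. Over 45 pairs, a single pair at that p is adjusted to 0.104, so no pair could pass Benjamini-Hochberg adjustment alone. No pair passed, and nothing is read from this. Flt1 and Abcb1a varied most closely together, with Pearson's r = 0.973 (exact permutation p = 0.00231, adjusted 0.104) and Spearman's rho = 0.973 (exact permutation p = 0.00231, adjusted 0.104). Without the 2 libraries farthest from the median of Flt1, r was 0.968. Slc2a1 and Mfsd2a had r = 0.907 (exact permutation p = 0.0162, adjusted 0.365) and rho = 0.864 (exact permutation p = 0.0185, adjusted 0.417), with r = 0.857 without the 2 farthest libraries. Kdr and Slc2a1 ran against each other, with r = -0.893 (exact permutation p = 0.0255, adjusted 0.382) and rho = -0.782 (exact permutation p = 0.0324, adjusted 0.486). Without the 2 farthest libraries r was -0.679 for this pair. Flt1 and Tek had r = 0.730 (exact permutation p = 0.0394, adjusted 0.443). These were the 4 of 45 pairs with an unadjusted exact permutation p under 0.05 for r.

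Slco1c1 and Kdr, the members that differed most between treatments in the same direction, had r = -0.14 within groups, and r = -0.51 without the 2 libraries farthest from the median of Slco1c1. The deviations of the general endothelial mean had r = 0.82 with those of Pecam1, 0.66 with Cldn5, 0.45 with Kdr, 0.15 with Slco1c1 and -0.44 with Slco1a4, given as a description over the 11 libraries, which share depth and dissection within a library.

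**Figure D5:**
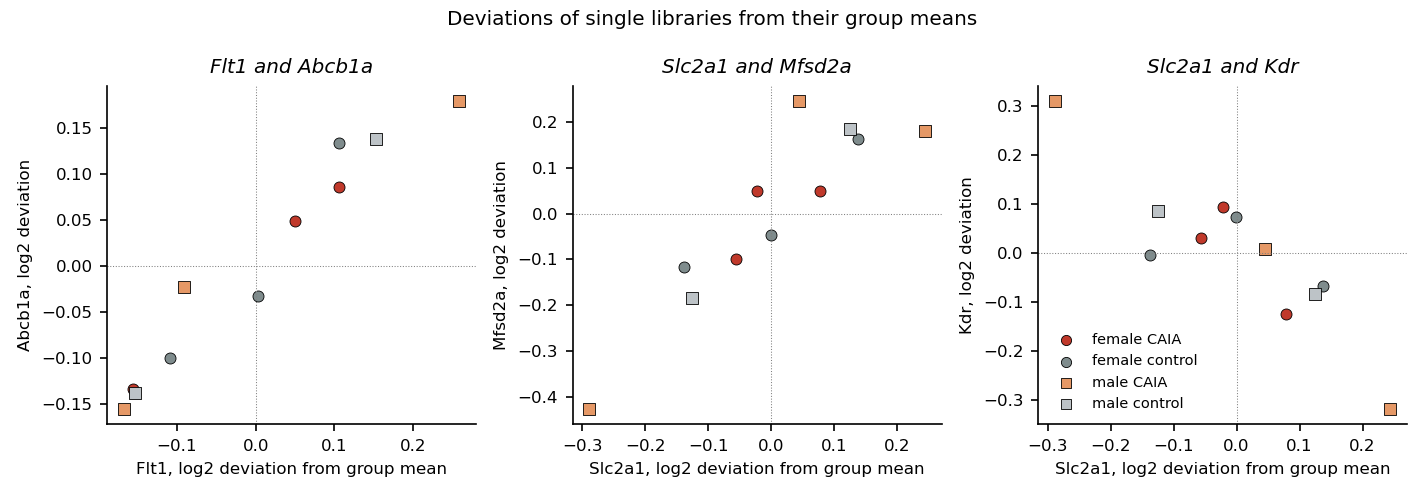
Deviations of log2 CPM from the group mean for pairs of members, 1 point for each of 11 libraries. Flt1 and Abcb1a lie along a rising line with r = 0.973, Slc2a1 and Mfsd2a along another with r = 0.907, and Slc2a1 and Kdr along a falling one with r = -0.893, where male CAIA replicates 1 and 2 hold the ends.

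The genes whose log2 CPM was most like that of Slco1c1 over the 11 libraries, among 15550 genes of mean level 1 CPM or more, were Kctd11, Lrp5, Gm13110, Pon3 and Ephx1, with Pearson's r of 0.946, 0.945, 0.944, 0.944 and 0.942. For Kdr they were Slc16a6, Aldh3b1, Caskin2, Pdgfrb and Prps2, with r of 0.917, 0.906, 0.901, 0.885 and 0.881. These values hold the difference between treatments, and each of the 10 genes had a negative log2 fold change in CAIA. By deviations from group means, which remove it, the nearest genes were others. They were Mex3a, Pwwp2b, Dram1, Zfp558 and Rasl12 for Slco1c1, with r of 0.931, 0.918, 0.918, 0.917 and 0.917. For Kdr they were Rpl9-ps7, Insig1, Kat7, Bmf and Dnajb11, with r of 0.982, 0.932, 0.914, 0.901 and 0.899. No gene was among the 5 nearest of a member by both measures. All these r values are the highest of 15550 genes ranked over 11 libraries, and none was tested.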

How the data were processed

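RNA from dissected lateral habenula was measured in 11 libraries, grouped by sex and treatment from their labels. The deposited values are raw counts of reads per gene. The submitters' processing notes list featureCounts (1.5.0-p3), the aligner HISAT2 (2.0.5), the trimmer cutadapt (1.9.1) and the build GRCm38. Whether strand was used, how reads with several matches were counted, and which annotation release served are not given in the sources. All 54532 rows named a gene. Coordinates and exon lengths came from GENCODE M21, which matched 54495 identifiers, and promoter sequences from RefSeq (GRCm38.p6).

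Genes were filtered with filterByExpr, which left 19619, scaled with TMM and fitted as 4 group means in edgeR 4.0.16 (robust quasi-likelihood, 7 residual degrees of freedom). Tested were the CAIA effect averaged over the sexes, its female minus male difference, and female against male libraries. Adjustment was by Benjamini-Hochberg over all 19619 genes, with a threshold of 0.05. Log2 CPM values use a prior count of 2. No pair of libraries in a group agreed within sampling noise (chi-square over its degrees of freedom between 7.09 and 30.8). Counting error covers reads, not molecules. The fit was tested on simulated data.

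The 10 members and 22 lists of 193 genes were chosen with earlier results of these data known. The result of 1 list is not reported here. Named were the members, from each described list the genes that passed (at most 8) and up to 3 others of lowest p, the 5 genes most like Slco1c1 and Kdr, and Ttr. Other genes named, such as Slc16a1, Slc7a5, Vegfa, Nrp1, Mmrn2, Selp, Sele and relatives of members, were chosen after their values were seen. As 21 alternatives served 2 other scalings, DESeq2 1.42.0, limma-voom (limma 3.58.1), no count filter, an additive model, 2 covariates, 2 replicate blocks and each library left out. Leaving out a male control leaves 1 library in that group, assumed to vary like the others.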

Additional observations from a re-analysis of the deposited data

How the results depend on the processing

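The count of genes that passed in CAIA against control, 117, was 222 with DESeq2, 470 without the count filter and 1 with the choroid plexus level as a covariate. It was 43 to 180 when 1 library was left out, and fell to 70 or fewer without male control replicate 1, female control replicate 2, male CAIA replicate 3 or any female CAIA library. The count for the female minus male CAIA effect, 0, was 2 with DESeq2 and 316 without the filter, and stayed at 0 in each fit that left out 1 library. The count for female against male, 9, was 23 with DESeq2, 278 without the filter, and 7 to 23 with 1 library left out, the highest without male control replicate 3. Of the 2 members that passed, 0 did so with the choroid plexus covariate, and 1 with the general endothelial level as a covariate, with the replicate number as a block, and with that block within sex; leaving out 1 library gave 1 to 3, with Mfsd2a the third without male CAIA replicate 1. Slco1c1 passed in 20 of the 21 alternatives, Kdr in 9 and Mfsd2a in 2. The members were chosen with this contrast known, so these counts lend them no further support. With the choroid plexus covariate Slco1c1 relative to the general endothelial list was 0.017 and Kdr -0.75, both without an SE. Slco1c1 alone was at -0.34 in that fit, so the list mean was itself lower in CAIA there. That covariate does not overlap between treatments, and the cause was not tested. The labels do not say whether replicate numbers pair the libraries. Same-numbered deviations had correlations of -0.206 to 0.0317, and differently numbered ones were not set beside them. The block gave 115 genes in CAIA against control (126 within sex). The block within sex was not run for female against male, where it cannot be estimated. Of the choroid plexus genes 13 passed without the filter, 10 with the endothelial covariate, 12 with the block within sex, 3 with the additive model and 0 with the choroid plexus covariate. For the meningeal genes these counts were 5, 4, 2, 1 and 0, and DESeq2 gave 4. With the choroid plexus covariate the log2 fold changes of the other members were 0.94 for Mfsd2a, 0.70 for Slc2a1, -0.05 for Slco1a4, -0.13 for Abcb1a, -0.35 for Pecam1, -0.39 for Tek, -0.40 for Flt1 and -0.90 for Cldn5. Only 2 male controls limit the male comparisons.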
